A study of Mus musculus with 18 samples.

Results

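The 40 genes described here belong to NF-κB signalling and its feedback loops. They were taken by symbol from the deposited table of 54532 genes and fall into 5 REL family subunits, 5 members of the IκB family, 6 kinases, 10 feedback regulators and adaptors, 4 receptors, 4 ligands, 3 adhesion molecules and 3 other target genes. Of the 40, 37 passed the filter on low counts, and *Tnf*, *Csf2* and *Tnip3* did not. The counts come from bulk RNA sequencing of the mouse mesenchymal stem cell line CH310T1/2 (10T1/2 cells), which can be driven towards adipocytes. WT cells and 2 FOXS1 KO clones, each a single-cell-derived line made with CRISPR-Cas9, were grown to 2 days past confluence. Uninduced cells received no stimulus, and stimulated cells received TGF-β1 (1 nM, 12 h) and then DMII (48 h). DMII is an adipogenic mixture of insulin, indomethacin, dexamethasone and a phosphodiesterase inhibitor, 3-isobutyl-1-methylxanthine. Stimulated cells thus differed from uninduced cells by at least TGF-β1 and DMII together, and the parts of each cannot be told apart. By the methods of the study, cells were serum-starved overnight before TGF-β1, and DMII was given in a medium other than the growth medium. The medium of uninduced cells is not given there, so medium and serum may differ too. Each of the 6 groups (uninduced or stimulated; WT, clone 1 or clone 2) had 3 libraries. The labels do not say that replicates came from separate cultures, so the p-values measure only the spread between these libraries, which may be technical.

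NF-κB is a family of dimeric transcription factors made of RelA, RelB, c-Rel and the processed products of *Nfkb1* and *Nfkb2*. In resting cells the dimers are held back by IκB proteins; receptors of the TNF and Toll-like families signal through adaptors and the IκB kinases, IκBα is degraded, and the freed dimers enter the nucleus. Among the genes they switch on are several of the pathway's own brakes, including *Nfkbia*, *Tnfaip3* and *Zc3h12a*, so that the messenger RNA of these brakes is commonly read together with that of targets such as *Sod2* and *Lif*.

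Library totals ran from 15576685 to 42005596 counts, and 14317 genes were tested. Values below are CPM, a gene's share of the TMM-scaled library total, unless FPKM, which also divides by gene length, is named. Because CPM is a share, fewer cells of a type and less RNA per cell cannot be told apart. *Foxs1*, the targeted gene, had a higher CPM in every library labelled KO than in WT of the same treatment. It read 1.64 to 3.25 CPM in uninduced WT and 21.1 to 27.1 CPM in uninduced clones. In stimulated cells it read 1.85 to 3.13 CPM in WT and 38.0 to 56.8 CPM in the clones. Counts per gene do not show the edit, so clone 1 and clone 2 mean throughout the libraries labelled FOXS1 KO clone 1 and clone 2, and every direction relative to WT rests on those labels. FOXS1 protein was not analysed here.

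Most of the 40 members that differed between a clone and WT were higher in the clone. The list was chosen with earlier results of these data known, so its shares and medians describe these genes and not the pathway. A DEG is here a gene with an adjusted p below 0.05 over all genes tested and an absolute log2 fold change above 1. In stimulated cells, 11 of the 37 tested members were DEGs in clone 1 relative to WT, all 11 higher, where 19.0% of all genes tested were DEGs (9.42% higher, 9.60% lower). In clone 2 the number was 14, of which 13 were higher and *Bcl3* lower, with 16.9% of all genes called (7.95% higher, 8.94% lower). In uninduced cells, 9 members were DEGs in clone 1, all higher (15.1% of all genes called, 6.32% higher and 8.73% lower), and 8 in clone 2, with 6 higher and *Bcl3* and *Lif* lower (15.1% of all genes called, 5.54% higher and 9.56% lower). The median log2 fold change over the tested members was 0.56 in clone 1 and 0.65 in clone 2 in stimulated cells and 0.41 and 0.34 in uninduced cells, beside medians of -0.02, -0.01, -0.01 and -0.02 over all genes tested. Both clones were set against the same WT libraries, so their comparisons are not independent. The 11 genes higher in both clones in stimulated cells were *Nfkbia*, *Nfkbiz*, *Relb*, *Map3k8*, *Traf2*, *Zc3h12a*, *Tnfrsf1b*, *Tlr2*, *Tlr4*, *Lif* and *Sod2*. A further 52 pathway genes outside the list were tested. In stimulated clone 1, 6 of them were higher and 6 lower than in WT, and in stimulated clone 2, 6 were higher and 3 lower.

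Levels of cell type markers also stood apart between the clones and WT; they are given as descriptions, and their part in the NF-κB values was not tested. Of 10 fibroblast and mesenchymal markers, none was at 0 in any group, and their summed level was 43069 to 47010 CPM in uninduced WT, 40118 to 40983 CPM in clone 1 and 47728 to 48692 CPM in clone 2. Stimulated sums were 88281 to 91544, 69841 to 75624 and 95619 to 104391 CPM. Single markers had other orders than the sum. The uninduced mean of *Thy1* was 59.6 CPM in WT, 184 in clone 1 and 0.616 in clone 2, while the stimulated mean of *Lum* was 10.4 CPM in WT, 0.467 in clone 1 and 0.537 in clone 2. The summed 8 markers of mature adipocytes, the cells that DMII induces, were 30.5 to 35.4 CPM in uninduced WT, 1.50 to 2.54 CPM in clone 1 and 7.26 to 8.75 CPM in clone 2, *Lpl* being the main one in WT with 31.6 CPM. In stimulated cells the order was another, with 4.16 to 4.97 CPM in WT, 30.9 to 43.2 CPM in clone 1 and 6.13 to 8.24 CPM in clone 2, where *Fabp4* averaged 0.631, 20.4 and 3.16 CPM. From 2 to 5 of these 8 were at 0 in a group, *Lep* and *Retn* among them in each. The summed 10 macrophage and myeloid markers were 4.72 to 9.87 CPM in uninduced WT, 49.8 to 54.0 CPM in clone 1 and 31.6 to 34.2 CPM in clone 2, and 4.37 to 5.49, 15.8 to 22.3 and 14.7 to 17.7 CPM in the stimulated groups. Most of this was *Cd14*, the co-receptor of Toll-like receptors, at 6.45, 44.8 and 26.5 CPM in uninduced cells, followed by *Lyz2*, the lysozyme gene, at 0.731, 5.59 and 4.65 CPM. From 4 to 6 of these 10 were at 0 in a group, the leukocyte marker *Ptprc* and the myeloid adaptor *Tyrobp* in every group. Endothelial markers, 8 in number with 1 to 3 at 0, summed to 5.09 to 7.92 CPM in uninduced WT and to at most 1.40 CPM in any library of the other groups. Most of the uninduced WT sum was *Tek*, with a mean of 5.91 CPM, followed by *Pecam1* with 0.617 CPM.

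**Figure D1:**
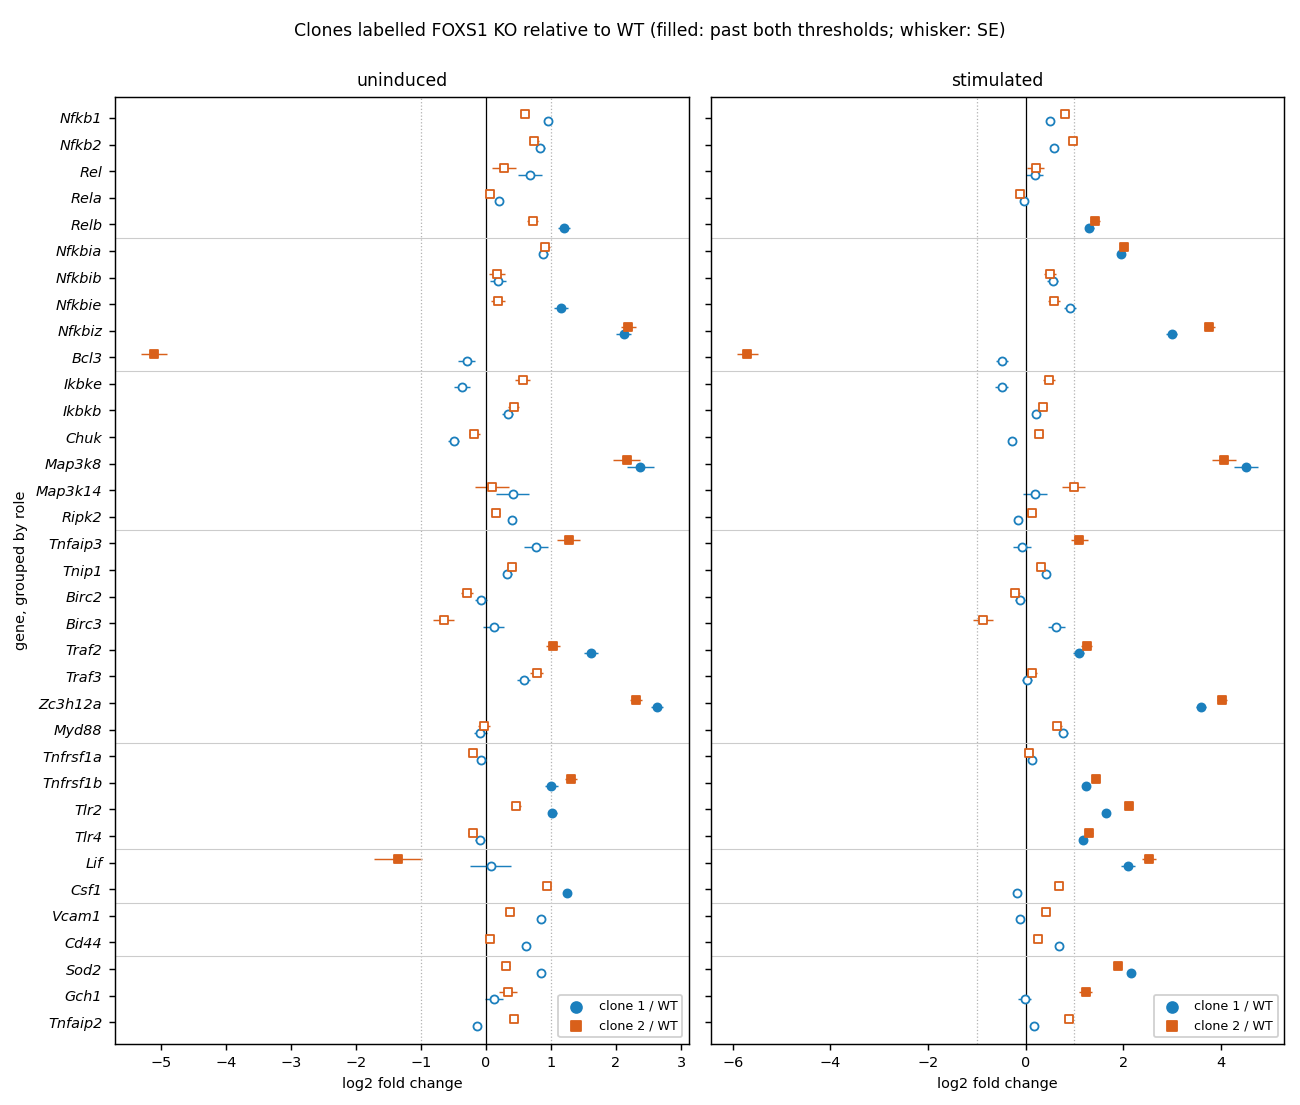
Log2 fold change of each clone labelled FOXS1 KO relative to WT (x axis) for tested members grouped by role (y axis), uninduced on the left and stimulated on the right. Whiskers are SE back-calculated from the test, filled symbols are DEGs and dotted lines mark a log2 fold change of 1. *Traf1* and *Icam1*, with counts near 0, are left out. In stimulated cells 11 members are filled in clone 1 and 14 in clone 2, and *Bcl3* in clone 2 lies far to the left.

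Sequences upstream of RefSeq starts of several of these genes hold matches to the κB consensus, the recognition sequence of NF-κB dimers. RefSeq promoter windows of GRCm38.p6, 250 bases before to 50 after a start, were matched by symbol for 32 of the 40 members; *Ikbkb*, *Map3k8*, *Nfkb1*, *Nfkbiz*, *Relb*, *Ripk2*, *Tlr4* and *Vcam1* had none. The κB consensus was found on either strand in windows of 15 of these 32 genes (46.875%), against 9.55% of all 27025 genes and 8.459% of all 32851 windows. The palindromic form GGAANTTCC, which overlaps the consensus in part, was in windows of 3 members, *Icam1*, *Nfkbia* and *Tnfaip3* (9.375%, against 1.069% of all genes). The members were chosen as genes and targets of the pathway, so these shares are not independent of that choice and were not tested. A match describes letters and not a bound site, and a window without one says only that these letters are not in it. The stretches below are from 7 members that were DEGs between a clone and WT and had an upstream match. *Nfkbie* also met this rule, with a match at -106 from its RefSeq start, and its stretch is not printed. They are the parts of the upstream windows outside GENCODE M21 exons, 5′ to 3′ on the gene's strand, with matches to the κB consensus in capitals.
Nfkbia: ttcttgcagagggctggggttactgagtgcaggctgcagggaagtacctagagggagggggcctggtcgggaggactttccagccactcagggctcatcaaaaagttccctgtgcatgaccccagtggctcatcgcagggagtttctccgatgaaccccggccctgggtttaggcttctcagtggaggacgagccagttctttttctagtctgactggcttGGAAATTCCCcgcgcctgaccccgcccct
Sod2: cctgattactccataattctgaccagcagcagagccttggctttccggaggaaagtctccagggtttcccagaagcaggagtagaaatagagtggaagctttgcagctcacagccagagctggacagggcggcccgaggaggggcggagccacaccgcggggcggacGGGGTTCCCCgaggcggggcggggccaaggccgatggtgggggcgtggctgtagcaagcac
Lif: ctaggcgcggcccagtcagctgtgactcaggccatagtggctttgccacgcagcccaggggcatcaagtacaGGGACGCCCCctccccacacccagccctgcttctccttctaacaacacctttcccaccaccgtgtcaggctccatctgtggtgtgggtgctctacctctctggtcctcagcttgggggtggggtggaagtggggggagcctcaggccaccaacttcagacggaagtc
Csf1: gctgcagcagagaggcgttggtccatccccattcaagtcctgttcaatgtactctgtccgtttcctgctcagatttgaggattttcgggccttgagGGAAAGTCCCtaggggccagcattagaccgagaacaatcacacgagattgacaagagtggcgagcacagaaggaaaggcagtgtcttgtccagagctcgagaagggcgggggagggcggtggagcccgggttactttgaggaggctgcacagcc
Tlr2: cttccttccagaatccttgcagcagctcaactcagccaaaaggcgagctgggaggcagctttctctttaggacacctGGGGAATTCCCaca
Gch1: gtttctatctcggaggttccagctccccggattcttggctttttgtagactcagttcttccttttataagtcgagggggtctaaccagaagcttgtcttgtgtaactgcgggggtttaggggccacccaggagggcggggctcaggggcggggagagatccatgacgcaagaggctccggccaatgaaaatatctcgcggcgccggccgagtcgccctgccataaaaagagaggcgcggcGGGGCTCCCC
Tnfaip3: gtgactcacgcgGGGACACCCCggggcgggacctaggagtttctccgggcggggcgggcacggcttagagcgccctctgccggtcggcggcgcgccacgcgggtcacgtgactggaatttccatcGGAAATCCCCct

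Positions are counted from the RefSeq start of each window, with negative numbers upstream. The *Sod2* and *Tnfaip3* stretches lie within the gene spans of the counted table (chr17:13006846-13040063 and chr10:19000910-19015657). Their matches are thus upstream of a RefSeq start inside the gene. The RefSeq starts of *Tlr2* and *Lif* also lie inside the gene span, with the printed stretches outside it. The *Nfkbia* stretch lies at chr12:55492648-55492897 on the minus strand, and its match, which reads as the consensus on the other strand, begins at -29. That of *Sod2* is at chr17:13007589-13007816 (plus strand, match at -83) and that of *Lif* at chr11:4257318-4257556 (plus strand, match at -178). The *Csf1* stretch, at chr3:107760470-107760719 on the minus strand, also carries its match on the other strand, at -154. For *Tlr2* the stretch is chr3:83841768-83841858 (minus strand), where overlapping matches begin at -173 and -172, and a further match at -8 falls outside the stretch. *Gch1* has its match at -10 within chr14:47189414-47189663 (minus strand). In *Tnfaip3*, at chr10:19015411-19015547 on the minus strand, matches begin at -125 on the gene's strand and at -12 on the other strand. The window of another *Tnfaip3* start, with its upstream part at chr10:19011964-19012213, had no match. *Zc3h12a*, *Traf2* and *Tnfrsf1b*, which are described below and were also DEGs in both clones, had a window without the consensus.

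**Figure D2:**
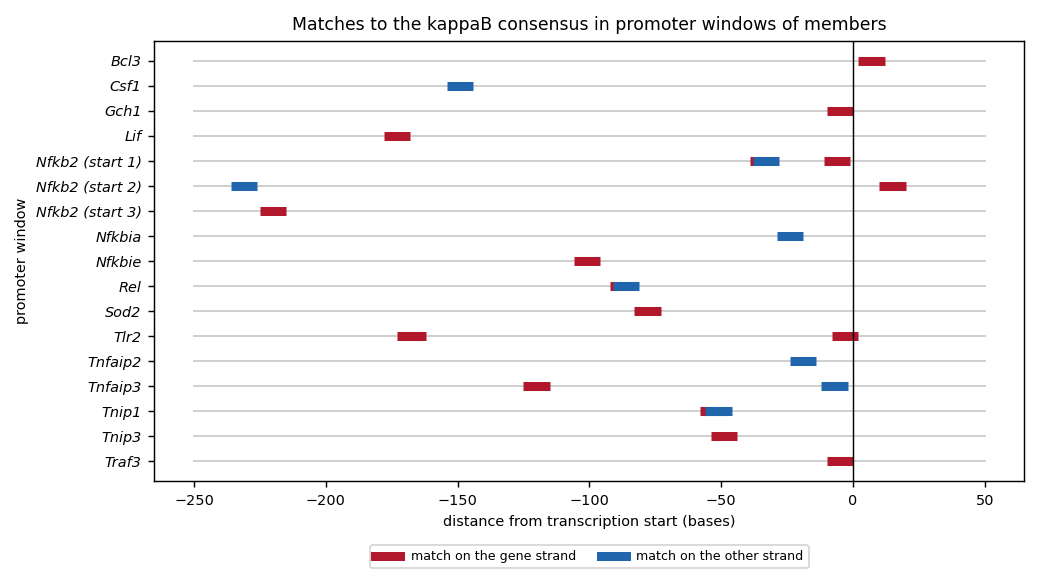
Position of each match to the κB consensus (x axis, bases from the RefSeq start at 0) in the RefSeq windows of the 15 members that hold one (y axis, where *Nfkb2* has 3 starts with matches). Red marks a match on the gene's strand and blue one on the other strand; the match of *Nfkbia* begins at -29 and that of *Sod2* at -83.

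Of the REL family subunits, only *Relb* was a DEG between a clone and WT. *Relb* (ENSMUSG00000002983, chr7:19606217-19629438, minus strand), the transactivating subunit of the non-canonical arm, stood at 16.4, 21.4 and 18.1 CPM in the 3 uninduced WT libraries, 42.8, 45.3 and 40.2 CPM in clone 1 and 30.6, 30.5 and 31.0 CPM in clone 2. In stimulated cells it read 9.68, 9.76 and 10.5 CPM in WT, 24.3, 25.4 and 24.3 CPM in clone 1 and 26.2, 27.3 and 26.8 CPM in clone 2. Every library of both clones was above every WT library in each treatment. The log2 fold change over WT was 1.31 ± 0.09 (SE) in stimulated clone 1 (adjusted p = 4.61e-13) and 1.42 ± 0.10 in stimulated clone 2 (adjusted p = 1.02e-13). In uninduced cells it was 1.20 ± 0.09 in clone 1 (adjusted p = 1.21e-12), while in clone 2 the value of 0.72 ± 0.09 stayed below 1. *Rela*, the main canonical transactivator, held a narrow range of group means from 66.2 to 83.4 CPM. *Nfkb1*, whose product is processed to a DNA-binding partner of RelA, averaged 77.8 ± 0.933 CPM (SD, n = 3) in uninduced WT, 151 ± 3.05 in clone 1 and 118 ± 6.14 in clone 2. After stimulation its means were 70.6 ± 4.61, 99.4 ± 4.80 and 123 ± 1.98 CPM. *Nfkb2*, the partner of RelB, averaged 50.1 ± 2.91 CPM in stimulated WT, 74.7 ± 5.36 in clone 1 and 97.9 ± 9.24 in clone 2. Relative to WT its value in stimulated clone 2, 0.97 ± 0.07 on the log2 scale, was just short of 1. Genes on the opposite strand cover 18.1% of the 4584 exonic bases of *Nfkb2* in GENCODE M21. The counted table gives *Nfkb2* a length of 3289 bases, so the share of the gene as counted may differ. Since the strand setting of the counting is not given, reads of *Nfkb2* and of these genes cannot be told apart. *Rel*, the c-Rel subunit best known from lymphocytes, was the rarest of the family, with group means from 5.16 to 10.5 CPM.

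Per length, the make-up of the REL family differed between WT and the clones. *Rela* held 48.9% ± 2.21 (SD, n = 3) of the summed FPKM of the 5 subunits in uninduced WT, 36.5% ± 0.750 in clone 1 and 38.0% ± 0.513 in clone 2. In stimulated cells its share was 51.6% ± 0.554 in WT, 40.05% ± 1.31 in clone 1 and 33.6% ± 0.453 in clone 2. *Nfkb2* had the converse order, with 29.6% ± 1.05 in stimulated WT, 35.2% ± 1.24 in clone 1 and 40.9% ± 1.65 in clone 2. The share of *Relb* in stimulated cells was 5.01% ± 0.402 in WT, 9.86% ± 0.186 in clone 1 and 9.50% ± 0.647 in clone 2. These shares are descriptions and were not tested.

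**Figure D3:**
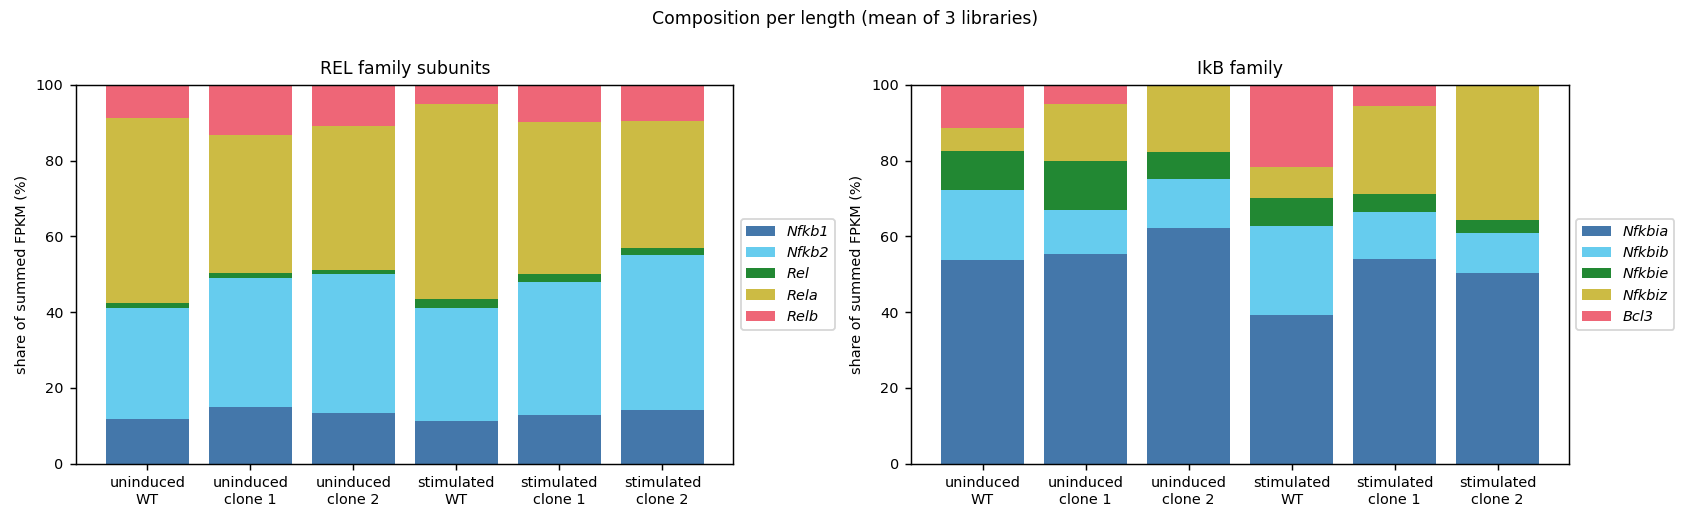
Share of summed FPKM (y axis, %) held by each of the 5 REL family subunits (left) and the 5 IκB family members (right) in each group (x axis), as the mean of 3 libraries. *Rela* takes a smaller share in every clone group than in WT, and *Nfkbiz* takes 23.2% in stimulated clone 1 and 35.4% in stimulated clone 2 against 8.15% in stimulated WT.

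In the IκB family, *Nfkbia* and *Nfkbiz* were higher in both stimulated clones and *Bcl3* was lower in clone 2. *Nfkbia* (ENSMUSG00000021025, chr12:55489410-55492647, minus strand), which encodes IκBα, the rapidly resynthesised brake on RelA dimers, read 44.1, 40.5 and 38.0 CPM in uninduced WT, 77.9, 73.5 and 73.4 CPM in clone 1 and 77.7, 81.3 and 70.5 CPM in clone 2. After stimulation it read 22.9, 25.6 and 23.0 CPM in WT, 95.1, 90.6 and 91.9 CPM in clone 1 and 102, 97.1 and 89.8 CPM in clone 2. WT libraries lay below both clones before stimulation, and the gap was wider after it, with a mean of 23.8 CPM in WT and means of 92.5 and 96.2 CPM in the clones. The log2 fold change over stimulated WT was 1.96 ± 0.07 in clone 1 (adjusted p = 3.28e-20) and 2.01 ± 0.07 in clone 2 (adjusted p = 2.19e-20). In uninduced cells it was 0.88 ± 0.07 and 0.91 ± 0.07, below the threshold of 1. With the median of chromosome 12 subtracted, the clone 1 value was 1.07 and past that threshold. The adjusted p of 4.9e-12 belongs to the test of the unsubtracted value. The response to stimulation was -0.78 ± 0.07 in WT, 0.30 ± 0.07 in clone 1 and 0.33 ± 0.07 in clone 2. The difference in response from WT was 1.08 ± 0.10 in clone 1 (adjusted p = 3.15e-10) and 1.10 ± 0.10 in clone 2 (adjusted p = 2.36e-10).

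*Nfkbiz* (ENSMUSG00000035356, chr16:55811375-55838899, minus strand) encodes IκBζ, a nuclear IκB that acts as a co-activator at a subset of NF-κB targets. Uninduced WT libraries had 12.9, 12.4 and 17.8 CPM, those of clone 1 58.4, 64.2 and 67.5 CPM and those of clone 2 67.2, 62.0 and 70.4 CPM. Stimulated WT libraries had 14.6, 18.1 and 13.7 CPM, those of clone 1 121, 137 and 113 CPM and those of clone 2 201, 210.0 and 221 CPM. The WT response was 0.09 ± 0.13 (adjusted p = 0.598), whereas both clones stood above WT in uninduced cells and further above it in stimulated cells. Relative to WT, the log2 fold change was 2.12 ± 0.12 in uninduced clone 1 (adjusted p = 6.75e-12) and 2.19 ± 0.12 in uninduced clone 2 (adjusted p = 3.28e-12). In stimulated cells it was 3.00 ± 0.12 in clone 1 (adjusted p = 8.7e-15) and 3.76 ± 0.12 in clone 2 (adjusted p = 2.68e-16). Responses differed from WT by 1.58 ± 0.16 in clone 2 (adjusted p = 2.39e-07) and 0.88 ± 0.17 in clone 1, below the threshold. The median over genes of chromosome 16 was 0.42 on the log2 scale in stimulated clone 2 relative to WT, and *Nfkbiz* stood 3.34 above that median.

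*Bcl3* (ENSMUSG00000053175, chr7:19808462-19822770, minus strand), the nuclear IκB that partners homodimers of the *Nfkb1* and *Nfkb2* products, was close to 0 in clone 2 only. It read 14.5, 13.4 and 11.8 CPM in uninduced WT, 9.53, 10.5 and 12.1 CPM in clone 1 and 0.402, 0.266 and 0.464 CPM in clone 2. In stimulated cells the values were 20.1, 20.9 and 19.8 CPM in WT, 14.2, 13.5 and 15.8 CPM in clone 1 and 0.224, 0.588 and 0.361 CPM in clone 2. The clone 2 libraries held between 4 and 18 counts of the gene each. Clone 2 was lower than WT, with a log2 fold change of -5.11 ± 0.20 in uninduced cells (adjusted p = 5.85e-19) and -5.71 ± 0.22 in stimulated cells (adjusted p = 1.2e-19). The direct comparison of the clones gave 5.22 ± 0.22 higher in clone 1 in stimulated cells (adjusted p = 8.99e-18). Within 100 kb, *Nectin2* was a DEG in the same direction in stimulated clone 2 (log2 fold change of -1.46) and *Pvr* had -0.81, while the 19 tested genes within 500 kb had a median of -0.02. An opposite-strand gene covers 6.51% of the exonic bases of *Bcl3*.

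*Nfkbie*, which encodes the cytoplasmic inhibitor IκBε (ENSMUSG00000023947, chr17:45555703-45563169, plus strand), was a DEG relative to WT in uninduced clone 1. Its values were 15.6, 14.4 and 14.8 CPM in uninduced WT, 32.7, 31.9 and 34.7 CPM in clone 1 and 17.8, 17.4 and 15.3 CPM in clone 2. With stimulation they were 10.1, 8.55 and 6.94 CPM in WT, 14.4, 16.3 and 17.3 CPM in clone 1 and 12.1, 13.1 and 13.2 CPM in clone 2. Uninduced clone 1 thus stood above all other groups, at a log2 fold change of 1.15 ± 0.11 over WT (adjusted p = 2.68e-10), which became 0.99 once the median of chromosome 17 was subtracted. *Nfkbib*, the gene of the related inhibitor IκBβ, had group means from 19.1 to 28.4 CPM and was no DEG in any comparison; opposite-strand genes cover 16.4% of its exonic bases. Per length, the share of *Nfkbiz* in the summed FPKM of the family was 6.13% ± 1.66 in uninduced WT, 15.0% ± 1.03 in clone 1 and 17.4% ± 1.75 in clone 2. In stimulated cells *Bcl3* held 21.7% ± 0.252 in WT, 5.51% ± 0.444 in clone 1 and 0.133% ± 0.0618 in clone 2. *Nfkbia* was the most abundant member per length in every group, from 39.2% ± 1.72 in stimulated WT to 62.3% ± 2.20 in uninduced clone 2.

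Among the kinases, *Map3k8* was the DEG in every comparison with WT. *Map3k8* (ENSMUSG00000024235, chr18:4331327-4353015, minus strand) encodes a kinase that links NF-κB and ERK signalling downstream of Toll-like and TNF receptors. In uninduced cells it read 1.28, 1.99 and 1.11 CPM in WT, 6.56, 7.83 and 8.03 CPM in clone 1 and 5.69, 7.04 and 6.84 CPM in clone 2. Stimulated WT libraries held 9 counts each, or 0.440, 0.389 and 0.406 CPM, beside 8.57, 9.66 and 10.5 CPM in clone 1 and 7.79, 6.60 and 6.49 CPM in clone 2. The WT level was lower in stimulated cells (log2 fold change of -1.79 ± 0.30, adjusted p = 8.27e-06), while the responses of 0.36 ± 0.17 in clone 1 and 0.11 ± 0.18 in clone 2 did not pass the test. Relative to WT the log2 fold change was 2.37 ± 0.21 in uninduced clone 1 (adjusted p = 5.73e-11) and 2.17 ± 0.21 in uninduced clone 2 (adjusted p = 3.53e-10). In stimulated cells it was 4.52 ± 0.25 in clone 1 (adjusted p = 6.39e-16) and 4.07 ± 0.25 in clone 2 (adjusted p = 2.07e-14). Its responses differed from WT by 2.15 ± 0.35 in clone 1 (adjusted p = 1.28e-05) and 1.90 ± 0.35 in clone 2 (adjusted p = 8.81e-05).

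The other kinases were no DEGs relative to WT. *Ikbkb* and *Chuk*, the catalytic subunits of the IκB kinase complex, had group means from 28.4 to 41.5 CPM and from 25.6 to 40.3 CPM. *Ikbke*, an IκB kinase relative of interferon signalling, had stimulated means of 9.12 ± 0.532 CPM in WT, 6.47 ± 0.938 CPM in clone 1 and 12.8 ± 0.645 CPM in clone 2. *Ripk2*, the adaptor kinase of NOD receptors, ran from 37.4 to 60.9 CPM. *Map3k14* encodes NIK, the kinase that starts the non-canonical arm. It rose with stimulation in clone 2, from 4.08 ± 0.796 to 10.4 ± 2.06 CPM (log2 fold change of 1.36 ± 0.24, adjusted p = 2.86e-05). Its values were 3.77 ± 0.968 and 5.26 ± 1.25 CPM in WT and 5.07 ± 1.74 and 6.003 ± 1.58 CPM in clone 1, and its difference in response between clone 2 and WT was 0.89 ± 0.35 (adjusted p = 0.0551).

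*Zc3h12a* (ENSMUSG00000042677, chr4:125118423-125127840, minus strand) had the largest fold of the feedback genes in each comparison with WT. It encodes Regnase-1, an endonuclease that degrades inflammatory messenger RNAs, those of *Nfkbiz* included. In uninduced cells the values were 9.61, 11.5 and 10.7 CPM in WT, 65.6, 68.1 and 63.0 CPM in clone 1 and 52.4, 51.4 and 53.6 CPM in clone 2. Stimulated cells gave 6.55, 6.003 and 4.28 CPM in WT, 66.7, 72.2 and 64.6 CPM in clone 1 and 88.3, 92.3 and 94.0 CPM in clone 2. No clone library came near the WT range. In uninduced cells the log2 fold change over WT was 2.63 ± 0.09 in clone 1 (adjusted p = 1.49e-20) and 2.30 ± 0.09 in clone 2 (adjusted p = 3.27e-19). In stimulated cells it was 3.60 ± 0.10 in clone 1 (adjusted p = 2.1e-23) and 4.03 ± 0.10 in clone 2 (adjusted p = 1.84e-24). The difference in response was 1.72 ± 0.14 in clone 2 (adjusted p = 1.48e-11) and 0.97 ± 0.14 in clone 1, which lay just under the fold threshold and was past it, at 1.01 to 1.09, when 1 of 4 libraries was left out in turn (stimulated clone 1 replicate 3, stimulated WT replicate 1 or 2, or uninduced WT replicate 1).

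*Traf2*, an adaptor of TNF receptors that recruits the inhibitor-of-apoptosis ligases (ENSMUSG00000026942, chr2:25517982-25546940, minus strand), was higher in both clones in each treatment. Its uninduced values were 12.00, 13.9 and 11.02 CPM in WT, 35.5, 41.9 and 35.3 CPM in clone 1 and 24.8, 23.9 and 26.6 CPM in clone 2. In stimulated cells they were 13.3, 12.8 and 11.3 CPM in WT, 24.2, 27.7 and 27.2 CPM in clone 1 and 33.6, 29.6 and 25.7 CPM in clone 2. The groups did not overlap with WT. The log2 fold change over WT was 1.62 ± 0.11 and 1.03 ± 0.11 in uninduced clone 1 and clone 2 and 1.09 ± 0.11 and 1.25 ± 0.11 in the stimulated clones (adjusted p from 3.16e-09 to 1.93e-13). For stimulated clone 1 the value was 0.94 once the median of chromosome 2 was subtracted, and for uninduced clone 2 it was 0.96 without uninduced WT replicate 3 and 1.00, just short of the threshold, without uninduced clone 2 replicate 3. The 30 tested genes within 500 kb of *Traf2* had medians over WT of 0.58 and 0.34 in uninduced clone 1 and clone 2. In the stimulated clones these medians were 0.53 and 0.07.

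*Tnfaip3* (ENSMUSG00000019850, chr10:19000910-19015657, minus strand) encodes A20, the ubiquitin-editing inhibitor of the pathway, and was a DEG in clone 2 relative to WT. It read 3.49, 3.83 and 4.002 CPM in uninduced WT, 5.63, 5.95 and 7.77 CPM in clone 1 and 7.67, 9.34 and 10.7 CPM in clone 2. Stimulated values were 3.57, 4.97 and 3.61 CPM in WT, 4.21, 3.80 and 3.55 CPM in clone 1 and 8.80, 8.63 and 8.66 CPM in clone 2. In stimulated cells clone 1 overlapped WT, and clone 2 stood above both. The log2 fold change of clone 2 over WT was 1.27 ± 0.18 in uninduced cells (adjusted p = 4.43e-07) and 1.10 ± 0.18 in stimulated cells (adjusted p = 4.68e-06). Clone 1 was lower than clone 2 after stimulation (-1.18 ± 0.18, adjusted p = 2.63e-06), a difference of -0.69 with the median of chromosome 10 subtracted. With the same median subtracted, uninduced clone 1 stood 1.18 above WT, past the fold threshold that the unsubtracted value of 0.77 did not reach. The adjusted p of 0.000724 belongs to the test of the unsubtracted value.

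Of the remaining feedback genes and adaptors, none was a DEG relative to WT. *Tnip1*, a binding partner of A20, ran from 41.0 to 78.8 CPM over the groups, and its paralog *Tnip3* had at most 4 counts in any library. *Birc3*, an inhibitor-of-apoptosis ubiquitin ligase and a classical NF-κB target, fell with stimulation in each genotype. Its means went from 11.8 ± 2.51 to 3.74 ± 0.671 CPM in WT, from 12.8 ± 0.873 to 5.79 ± 0.336 CPM in clone 1 and from 7.52 ± 0.547 to 2.03 ± 0.475 CPM in clone 2. The response was -1.65 ± 0.17, -1.14 ± 0.16 and -1.88 ± 0.20 (adjusted p from 7.1e-07 to 1.33e-09), and stimulated clone 1 was higher than stimulated clone 2 by 1.50 ± 0.20 (adjusted p = 3.85e-07). Its neighbour and paralog *Birc2* stayed between 17.1 and 25.0 CPM; reads shared by the pair could be split between them. *Traf3*, which restrains NIK, averaged 24.8 ± 3.51 CPM in uninduced WT and 37.0 ± 2.30 and 42.5 ± 1.41 CPM in the clones, with stimulated means from 24.5 to 26.8 CPM. *Myd88*, the adaptor of Toll-like and interleukin-1 receptors, averaged 18.2 ± 1.43 CPM in stimulated WT, 31.2 ± 4.80 CPM in clone 1 and 28.6 ± 0.569 CPM in clone 2, with a log2 fold change of 0.78 ± 0.10 and 0.65 ± 0.10 over WT. The opposite-strand gene *Acaa1a* covers 11.3% of its exonic bases, and reads of the pair cannot be told apart. *Traf1* was rare: uninduced WT held 34 counts over its libraries and stimulated WT none, at least 11.9-fold lower against 3 counts over the group. Clone 1 went from 27 to 3 counts (10.6-fold, 95% exact counting interval 3.27 to 54.7) and clone 2 from 18 to 0 (at least 3.53-fold). The test of the *Traf1* response did not pass in clone 1 without stimulated replicate 1 or 3 (adjusted p = 0.0538 and 0.0592), nor in clone 2 without any of its stimulated replicates or without uninduced replicate 2 (adjusted p from 0.0534 to 0.0962). These intervals and floors cover counting error only.

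Of the 4 receptors, 3 were DEGs in both stimulated clones relative to WT. *Tnfrsf1a*, the death-domain receptor for TNF, was the most abundant member per length, at 104 FPKM in uninduced WT. It was the 1 receptor that was no DEG, with group means from 236 to 289 CPM. *Tnfrsf1b* (ENSMUSG00000028599, chr4:145213463-145246870, minus strand), the TNF receptor that signals through *Traf2*, rose with stimulation in each genotype and was higher in the clones. Uninduced values were 4.89, 5.61 and 4.96 CPM in WT, 10.8, 9.92 and 10.3 CPM in clone 1 and 12.5, 12.6 and 13.2 CPM in clone 2. Stimulated values were 55.7, 61.1 and 55.0 CPM in WT, 137, 143 and 125 CPM in clone 1 and 158, 159.5 and 147 CPM in clone 2. The 3 genotypes kept the same order in each treatment. The response was 3.48 ± 0.08 in WT, 3.71 ± 0.08 in clone 1 and 3.60 ± 0.07 in clone 2 (adjusted p from 1.81e-24 to 1.55e-26). The differences in response were 0.23 ± 0.12 and 0.13 ± 0.12 (adjusted p = 0.142 and 0.45). Over stimulated WT, the log2 fold change was 1.24 ± 0.06 in clone 1 (adjusted p = 1.25e-16) and 1.44 ± 0.06 in clone 2 (adjusted p = 4.32e-18). In uninduced cells it was 1.31 ± 0.09 in clone 2 and 1.00 ± 0.10 in clone 1, and the clone 1 value sat at the threshold, with 0.97 to 1.00 and no call under 7 alternatives. The 4 tested genes within 500 kb had medians over WT of 1.70 and 1.48 in uninduced clone 1 and clone 2. In the stimulated clones these medians were 1.24 and 0.64. Single neighbours spread widely, from -11.2 to 5.78 in uninduced clone 1, and a shift shared with the region was not tested.

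*Tlr2* and *Tlr4*, the receptors for bacterial lipoprotein and lipopolysaccharide, were lower in stimulated than in uninduced WT and higher in both stimulated clones than in stimulated WT. *Tlr2* (ENSMUSG00000027995, chr3:83836272-83841767, minus strand) read 40.6, 39.7 and 36.9 CPM in uninduced WT, 81.5, 78.8 and 77.0 CPM in clone 1 and 52.3, 57.5 and 51.9 CPM in clone 2. In stimulated cells it read 11.00, 11.7 and 10.2 CPM in WT, 36.0, 32.2 and 34.6 CPM in clone 1 and 46.3, 49.1 and 47.0 CPM in clone 2. The WT response was -1.83 ± 0.08 (adjusted p = 2.13e-18), that of clone 1 was -1.21 ± 0.07 (adjusted p = 2.51e-15) and that of clone 2 was -0.18 ± 0.07. Relative to stimulated WT the log2 fold change was 1.64 ± 0.08 in clone 1 (adjusted p = 3.04e-17) and 2.11 ± 0.08 in clone 2 (adjusted p = 7.21e-20). In uninduced clone 1 it was 1.02 ± 0.07 (adjusted p = 1.69e-13), but 0.98 without uninduced WT replicate 3 and 0.88 with the median of chromosome 3 subtracted. The *Tlr2* response differed from that of WT by 1.64 ± 0.10 in clone 2 (adjusted p = 1.49e-13) and 0.62 ± 0.10 in clone 1, below the fold threshold.

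*Tlr4* (ENSMUSG00000039005, chr4:66827584-66930284, plus strand) in uninduced cells read 81.2, 76.0 and 76.0 CPM in WT, 73.4, 69.1 and 76.6 CPM in clone 1 and 73.9, 63.7 and 63.9 CPM in clone 2. With stimulation it read 19.3, 17.4 and 22.1 CPM in WT, 43.9, 46.4 and 43.1 CPM in clone 1 and 45.6, 50.2 and 48.5 CPM in clone 2. In uninduced cells the log2 fold change from WT was -0.09 ± 0.07 in clone 1 and -0.21 ± 0.07 in clone 2; all stimulated libraries lay below the uninduced ones, those of WT furthest. Over stimulated WT the log2 fold change was 1.19 ± 0.08 in clone 1 (adjusted p = 1.38e-13) and 1.30 ± 0.08 in clone 2 (adjusted p = 2.64e-14). The response was -1.99 ± 0.08 in WT (adjusted p = 4.4e-19), with differences in response of 1.28 ± 0.11 in clone 1 (adjusted p = 8.29e-11) and 1.50 ± 0.11 in clone 2 (adjusted p = 3.12e-12). *Cd14*, the co-receptor of both, had higher group means in the clones than in WT in each treatment, whereas *Tlr4* had them only in stimulated cells. The uninduced means of *Cd14* are given above with the myeloid markers. Its stimulated means were 4.08 CPM in WT, 18.2 CPM in clone 1 and 14.7 CPM in clone 2.

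**Figure D4:**
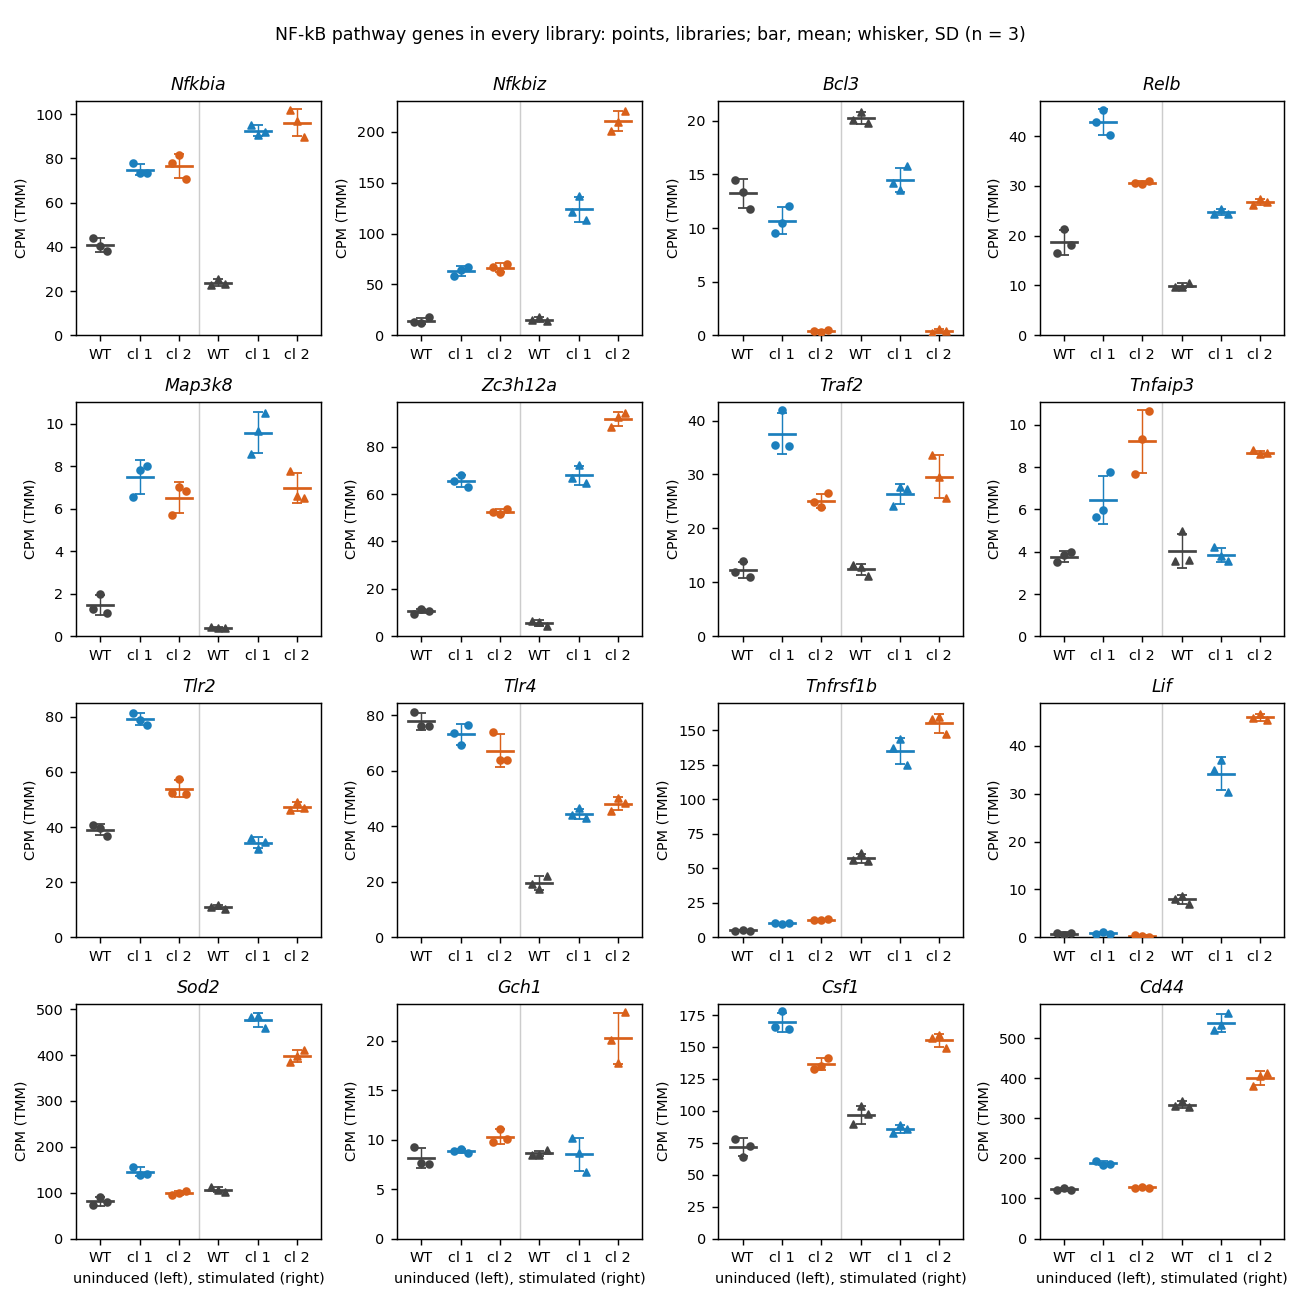
CPM (y axis, starting at 0) of 16 members in every library, by group (x axis; uninduced as circles on the left of each panel, stimulated as triangles on the right; cl 1 and cl 2 are the clones labelled FOXS1 KO). Bars are means and whiskers SD of 3 libraries; *Nfkbiz*, *Zc3h12a* and *Map3k8* separate both clones from WT in each treatment, and *Lif* and *Sod2* are highest in the stimulated clones.

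Of the ligands, *Lif* and *Csf1* were measurable. *Lif* (ENSMUSG00000034394, chr11:4257557-4272514, plus strand), a cytokine of the interleukin-6 family, was near the floor in uninduced cells, at 0.932, 0.419 and 1.03 CPM in WT, 0.666, 1.13 and 0.777 CPM in clone 1 and 0.446, 0.221 and 0.116 CPM in clone 2. Stimulated cells had 8.12, 8.72 and 6.99 CPM in WT, 34.9, 37.1 and 30.3 CPM in clone 1 and 45.7, 46.6 and 45.3 CPM in clone 2. It rose in each genotype and reached higher levels in the clones. The response was 3.28 ± 0.21 in WT (adjusted p = 4.97e-14), 5.31 ± 0.19 in clone 1 (adjusted p = 3.77e-20) and 7.16 ± 0.21 in clone 2 (adjusted p = 2.06e-22). Against the WT response, the difference was 2.03 ± 0.36 in clone 1 (adjusted p = 3.72e-05) and 3.88 ± 0.39 in clone 2 (adjusted p = 3.58e-09), the latter from an uninduced level of 2 to 20 counts a library. Over stimulated WT the log2 fold change was 2.10 ± 0.14 in clone 1 (adjusted p = 5.48e-14) and 2.53 ± 0.14 in clone 2 (adjusted p = 9.18e-16). Uninduced clone 2 was lower than WT, with a log2 fold change of -1.35 ± 0.36 (adjusted p = 0.00241), with counts of 8 to 27 a library in WT.

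*Csf1* (ENSMUSG00000014599, chr3:107741048-107760469, minus strand), the macrophage colony-stimulating factor, had another pattern. It read 78.1, 64.2 and 72.2 CPM in uninduced WT, 165, 178 and 164 CPM in clone 1 and 133, 135 and 142 CPM in clone 2. In stimulated cells the values were 89.8, 104 and 97.5 CPM in WT, 82.5, 88.5 and 86.0 CPM in clone 1 and 157, 159 and 149 CPM in clone 2. Clone 1 was above WT before stimulation and below it afterwards, and clone 2 was above WT in each treatment. Uninduced clone 1 was higher than WT by 1.24 ± 0.06 (adjusted p = 1.62e-16), and clone 2 by 0.93 ± 0.06, under the fold threshold. The response of clone 1 differed from that of WT by -1.42 ± 0.09 (adjusted p = 5.82e-14), the only difference in response below 0 among the members that passed. The value in clone 2 was -0.25 ± 0.09. *Tnf* and *Csf2* had no count in any of the 18 libraries, which allows up to 0.0354 to 0.0603 CPM in a group (3 counts over its libraries).

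No adhesion molecule was a DEG between a clone and WT. *Cd44*, the hyaluronan receptor, rose with stimulation in each genotype, from 123 ± 2.99 to 335 ± 8.17 CPM in WT, 189 ± 5.07 to 539 ± 22.6 CPM in clone 1 and 128 ± 0.683 to 399.9 ± 17.8 CPM in clone 2. The response was 1.45 ± 0.05, 1.51 ± 0.05 and 1.65 ± 0.05 (adjusted p from 1.15e-21 to 4.32e-23), and the differences in response from WT were 0.07 ± 0.06 and 0.20 ± 0.06. *Vcam1*, the ligand of leukocyte integrins, was 247 ± 10.1 CPM in uninduced and 248 ± 4.02 CPM in stimulated WT. In clone 1 it went from 444 ± 4.09 to 229 ± 1.41 CPM, and in clone 2 from 320.0 ± 6.50 to 329.9 ± 8.93 CPM. The difference in response between clone 1 and WT, -0.96 ± 0.06, missed the fold threshold narrowly. *Icam1*, a widely used NF-κB reporter gene in endothelial cells, was barely detected: uninduced WT held 47 counts and stimulated WT 1 count over 3 libraries (49.5-fold, 95% exact counting interval 8.46 to 1990.0). Clone 2 went from 46 counts to 0, at least 9.01-fold lower, and clone 1 from 21 to 6. An opposite-strand gene covers 11.7% of the exonic bases of *Icam1*.

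Among the other targets, *Sod2* (ENSMUSG00000006818, chr17:13006846-13040063, plus strand), the mitochondrial superoxide dismutase, was induced more strongly in the clones. Its uninduced values were 73.1, 90.6 and 78.9 CPM in WT, 156, 139.5 and 139.7 CPM in clone 1 and 95.3, 99.7 and 105 CPM in clone 2. In stimulated cells they were 113, 106 and 101 CPM in WT, 483, 486 and 458 CPM in clone 1 and 385, 397 and 410.1 CPM in clone 2. No stimulated clone library overlapped the WT range. The response was 0.40 ± 0.06 in WT, under the fold threshold, 1.71 ± 0.06 in clone 1 (adjusted p = 5.11e-20) and 2.00 ± 0.06 in clone 2 (adjusted p = 1.61e-21). Set against WT, the response differed by 1.31 ± 0.09 in clone 1 (adjusted p = 4.43e-13) and 1.60 ± 0.09 in clone 2 (adjusted p = 9.02e-15). Over stimulated WT the log2 fold change was 2.16 ± 0.06 (adjusted p = 2.54e-22) and 1.90 ± 0.06 (adjusted p = 6.22e-21).

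*Gch1* (ENSMUSG00000037580, chr14:47153895-47189413, minus strand), which encodes the first enzyme of tetrahydrobiopterin synthesis, differed from WT in stimulated clone 2. Uninduced values were 9.26, 7.65 and 7.51 CPM in WT, 8.86, 9.06 and 8.60 CPM in clone 1 and 9.73, 11.1 and 10.1 CPM in clone 2. After stimulation they were 8.46, 8.42 and 8.93 CPM in WT, 10.1, 8.67 and 6.74 CPM in clone 1 and 20.1, 17.8 and 22.9 CPM in clone 2. Stimulated clone 2 stood above every other group, by 1.24 ± 0.14 over WT (adjusted p = 4.54e-09), and clone 1 was lower than clone 2 (-1.26 ± 0.14, adjusted p = 6.51e-09). *Tnfaip2*, a TNF-inducible gene, averaged 98.3 ± 3.49 CPM in stimulated WT, 111 ± 4.65 CPM in clone 1 and 181 ± 6.46 CPM in clone 2. Its log2 fold change of 0.88 ± 0.06 in stimulated clone 2 was under the threshold.

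The response to stimulation within a genotype was mixed in direction. In WT, 9 members were DEGs where 19.9% of all genes tested were (6.25% higher, 13.6% lower): *Cd44*, *Tnfrsf1b* and *Lif* higher, and *Tlr2*, *Tlr4*, *Birc3*, *Map3k8*, *Icam1* and *Traf1* lower. Clone 1 had 8 (16.7% of all genes, 5.95% higher and 10.7% lower), with *Sod2* also among the higher ones and *Nfkbie* among the lower. Clone 2 had 9 (17.7% of all genes, 6.46% higher and 11.2% lower), of which 6 were higher, *Sod2*, *Nfkbiz* and *Map3k14* included. These numbers are 24.3%, 21.6% and 24.3% of the 37 tested members, not far above the shares over all genes. The median response of the members was -0.08 in WT, -0.25 in clone 1 and 0.11 in clone 2, beside -0.04, -0.02 and -0.02 over all genes.

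**Figure D5:**
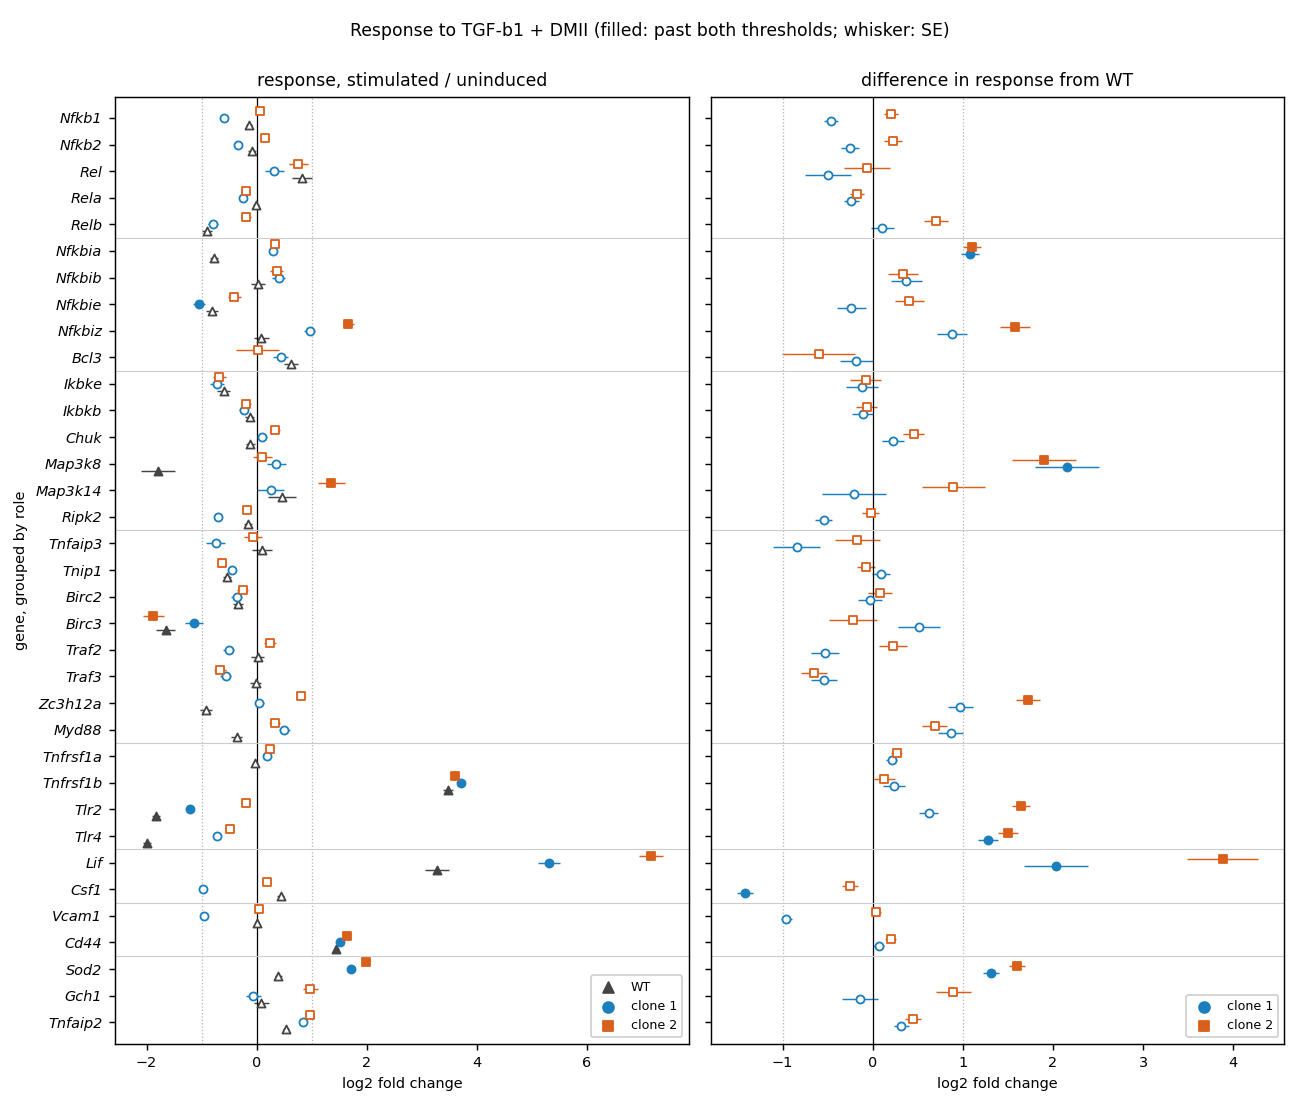
Log2 fold change of stimulated over uninduced cells in each genotype (left) and its difference between each clone and WT (right), for tested members grouped by role (y axis). Whiskers are SE, filled symbols are DEGs, and *Traf1* and *Icam1* are left out; *Tnfrsf1b*, *Cd44* and *Lif* are filled on the right of 0 in each genotype, and *Nfkbia*, *Map3k8*, *Tlr4*, *Lif* and *Sod2* have filled differences above 0 in both clones.

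The difference in response between clone 1 and WT passed both thresholds for 6 members, 5 of them higher (8.81% of all genes tested were called, 5.34% higher and 3.46% lower). In clone 2 it did so for 8, all higher (7.85% of all genes, 4.89% higher and 2.96% lower). *Nfkbia*, *Map3k8*, *Tlr4*, *Lif* and *Sod2* were in both sets, which share the 6 WT libraries. *Csf1* was added in clone 1, and *Nfkbiz*, *Zc3h12a* and *Tlr2* in clone 2. Among these members, *Nfkbia*, *Map3k8*, *Zc3h12a* and the Toll-like receptor genes had lower means in stimulated than in uninduced WT, with a response of -0.92 ± 0.11 for *Zc3h12a* and -0.78 ± 0.07 for *Nfkbia*, both short of the fold threshold. *Lif* and *Sod2* had higher means in stimulated WT, and a larger difference between treatments in the clones.

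Set against each other, the clones differed in 2 of 37 tested members in uninduced cells (5.41%) and in 4 in stimulated cells (10.8%), the latter near the share over all genes. In uninduced cells *Lif* and *Bcl3* were higher in clone 1 (8.67% of all genes tested were DEGs between the clones, 4.89% higher and 3.78% lower). In stimulated cells *Bcl3* and *Birc3* were higher and *Gch1* and *Tnfaip3* lower in clone 1 (9.98% of all genes, 5.50% higher and 4.48% lower). The *Nfkbiz* value of -0.77 ± 0.10 in stimulated cells (clone 1 relative to clone 2) was under the fold threshold. For *Nfkbia* the same difference was -0.06 ± 0.07 (adjusted p = 0.518) and for *Relb* -0.11 ± 0.09 (adjusted p = 0.314).

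Beyond the 40 members, 61 further genes of the pathway (adaptors, ubiquitin enzymes, receptors and targets) were counted, of which 52 were tested. In stimulated cells 6 were higher and 6 lower in clone 1 than in WT (23.1%), and 6 were higher and 3 lower in clone 2 (17.3%), near the shares over all genes. In uninduced cells 3 were higher and 2 lower in each clone (9.62%, beside 15.1% of all genes). *Il1rap*, the accessory chain of the interleukin-1 receptor, read 27.3 ± 1.24 CPM in stimulated WT, 168 ± 6.80 CPM in clone 1 and 139 ± 7.55 CPM in clone 2, or 2.63 ± 0.06 and 2.34 ± 0.06 over WT on the log2 scale. *Tnip2*, a further A20-binding protein, read 10.3 ± 1.87, 32.0 ± 0.507 and 49.8 ± 1.34 CPM in the same groups (1.63 ± 0.12 and 2.27 ± 0.12). *Zfp36*, which destabilises cytokine messenger RNAs, read 59.2 ± 6.89, 236 ± 15.3 and 158 ± 4.70 CPM (2.00 ± 0.06 and 1.42 ± 0.06). The inhibitory kinase relative *Irak3* was lower in the clones, at 8.11 ± 0.260, 1.10 ± 0.548 and 1.12 ± 0.329 CPM (-2.83 ± 0.25 and -2.85 ± 0.26). *Irak2*, a kinase relative of the same receptors, was also lower, at 26.2 ± 1.18, 7.77 ± 1.13 and 9.75 ± 0.583 CPM (-1.76 ± 0.14 and -1.43 ± 0.14). *Nlrx1*, a mitochondrial NOD-like receptor, read 18.6 ± 0.360 CPM in stimulated WT, 0.0727 ± 0.0190 CPM in clone 1 and 2.41 ± 0.823 CPM in clone 2.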

How the data were processed

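Poly(A) RNA of 18 libraries, 3 in each of 6 groups, had been sequenced by the authors, mapped with HISAT2 to mm10 per the labels, and summed per gene; the deposited values are raw counts. The program, strand and annotation of the counting step were not given in the sources used here. Each per-sample column was matched to a library by name, and none was left unmatched.

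Low genes were removed by filterByExpr with groups (minimum count of 10). Counts were scaled with TMM and fitted with 1 mean per group over all 18 libraries in edgeR 4.0.16 (glmQLFit, robust; glmQLFTest) under R 4.3.3. A DEG needed a Benjamini-Hochberg adjusted p below 0.05 over 14317 genes and more than 1 log2 unit of change in either direction. The SE of a log2 fold change is its absolute value divided by the square root of the F statistic of glmQLFTest. It is thus back-calculated from the test and is not a standard error of the fitted coefficient. The script was tested on simulated counts. FPKM used the table's gene lengths, and exon overlaps used GENCODE M21. Members called between a clone and WT or in a difference in response were given in every library, other members as group means, and at most 6 further pathway genes, the most changed in both stimulated clones, were named. The members and lists were chosen with earlier results of these data known. Alternatives were DESeq2 1.42.0, its size factors in edgeR, other filters, only the groups compared, no fold threshold, a replicate block, leaving out each library in turn and, added after seeing the data, subtracting chromosome medians. That subtraction changed the fold change only, and the p-values of the main fit were kept. A group without counts was held to 3 counts over its libraries (0.0354 to 0.0603 CPM). Within groups, replicates spread more than counting error.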

Additional observations from a re-analysis of the deposited data

Results flagged for a closer look

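Members whose response to stimulation differed between a clone labelled FOXS1 KO and WT, by the test of that difference in the same model, are listed here with the difference on the log2 scale; no explanation was tested. In clone 1 the difference was 1.08 for *Nfkbia*, 2.15 for *Map3k8*, 1.28 for *Tlr4*, 2.03 for *Lif* and 1.31 for *Sod2*. *Csf1* went the other way in clone 1, with -1.42. In clone 2 it was 1.10 for *Nfkbia*, 1.58 for *Nfkbiz*, 1.90 for *Map3k8* and 1.72 for *Zc3h12a*. For the receptors it was 1.64 in *Tlr2* and 1.50 in *Tlr4*, for *Lif* 3.88 and for *Sod2* 1.60, again in clone 2. The WT libraries entered both sets. Groups of 3 were too small to look for single outlying libraries.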

How the results depend on the processing

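No value of a member that was called reversed its sign under any alternative run. The share of all genes past the adjusted p alone was not computed, so the counts without the fold threshold do not set the members apart from other genes. Without the fold threshold, the tested members past the adjusted p alone numbered 24 for the WT response, 30 for that of clone 1 and 29 for that of clone 2. They numbered 25 and 27 for clone 1 and clone 2 against WT in uninduced cells, 27 and 29 in stimulated cells, 19 and 18 for the differences in response, and 21 and 22 for clone 1 against clone 2 in uninduced and stimulated cells. Leaving out each library in turn moved the counts of called members over 9 to 10, 6 to 10, 8 to 9, 7 to 9, 7 to 8, 11 to 12, 15 to 16, 6 to 8, 8 to 9, 2 to 3 and 4 to 6, in the same order. A fit with the replicate number as a block gave the same counts as without it: 9, 8, 9, 9, 8, 11, 14, 6, 8, 2 and 4. Same-numbered libraries of different groups did not deviate together (0 of 45 pairs had a correlation above 0.1, and 6 of 18 libraries correlated best with their own number), so the block was not read as a pairing. *Traf1* and *Icam1*, with counts near 0, dropped out under a filter of 1 CPM in 3 libraries, and their calls in the responses of *Traf1* (each genotype) and *Icam1* (clone 2) also dropped out of the fit of only the groups compared. The *Traf1* response missed the adjusted p when 1 of 2 libraries was left out in clone 1 or 1 of 4 in clone 2 (0.0534 to 0.0962). *Lif* in uninduced clone 2, from 2 to 20 counts a library, dropped out of the fit of only the groups compared. *Nfkbie* in the clone 1 response was -0.97 without stimulated clone 1 replicate 1. Leaving *Traf1* and *Icam1* out moved a median over members by at most 0.17. Calls were also gained. Subtracting chromosome medians brought *Nfkbia* (1.07) and *Tnfaip3* (1.18) in uninduced clone 1 and the *Zc3h12a* difference in response in clone 1 (1.02) past the threshold. Leaving out 1 library did so for *Birc3* (-1.01 and -1.09), *Map3k14* (1.05 to 1.18) and *Nfkb2* (1.02 and 1.04) in stimulated clone 2, for *Nfkbie* in stimulated clone 1 (1.05), and for the differences in response of *Map3k14* in clone 2 (1.06 and 1.09) and of *Nfkbiz* (1.02), *Zc3h12a* (1.01 to 1.09) and *Icam1* in clone 1. It did so too for 5 members in a response within a genotype (*Csf1*, *Icam1* and *Nfkbiz* in clone 1, *Gch1* and *Tnfaip2* in clone 2), for *Zc3h12a* in the WT response (-1.02), and for *Icam1*, *Ikbke* and *Nfkbie* between the clones.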
